A study of Mus musculus with 9 samples.

Results

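The levels of 3 genes with roles in the growth of neurons, Basp1, Tox and Serpine2, were examined in cerebellar tissue of Kcnd3 F227del knock-in mice. They are 3 of the 56953 genes listed in the count table and were among the 10842 genes that passed the expression filter and were tested. The genes were chosen by their lower counts in homozygous than in WT mice in these same libraries, so their differences between homozygous mice and the other genotypes are given as a description, without a test. The difference between heterozygous and WT mice and the genes of related function did not enter that criterion. The WT libraries did enter it, so the comparison of heterozygous with WT mice is not wholly free of the choice. The division among heterozygous libraries was known when the genes were taken up, so their spread is a description too.

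Kcnd3 codes for Kv4.3, a channel subunit of the A-type potassium current, and the mutant allele lacks the codon of 1 phenylalanine. Tissue enriched with Purkinje cells was taken by laser microdissection at 1.5 months of age from female mice with no mutant allele (WT), with 1 mutant allele (Kcnd3 F227del KI/+) and with 2 mutant alleles (Kcnd3 F227del KI/KI), with 3 biological replicates per genotype. The mutation is present in every cell of the KI mice, since it was introduced into the germ line through C57BL/6N embryonic stem cells, and the line was then bred onto C57BL/6J. The tissue holds Purkinje cells and the cells beside them, and in such tissue fewer cells of a type and less RNA per cell cannot be told apart.

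Basp1 is a lipid-anchored protein of the inner face of the plasma membrane that is abundant in growth cones and nerve endings. It works on the actin skeleton in the same way as GAP43 and MARCKS, and its level in the brain is known to fall as neurons mature. Tox is a nuclear protein with an HMG box, a fold that bends DNA, and is best known from the development of T cells but is also made in neural progenitors. Serpine2, also called protease nexin-1, is a secreted inhibitor of serine proteases such as thrombin and urokinase, and it was first described as a glial factor that promotes the outgrowth of neurites.

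Total counts ranged from 1915339 in KI/+ replicate 3 to 4032357 in KI/KI replicate 1. Levels are given as CPM, counts scaled to library size by TMM normalization, and since a CPM is not corrected for length, it is compared between libraries and not between genes. Kcnd3 itself had between 5 and 21 counts per library and had a mean of 4.753 ± 2.92 (SD, n = 3) CPM in the WT libraries, of 4.036 ± 0.829 in those of KI/+ and of 3.482 ± 1.23 in those of KI/KI mice. A deletion of 1 codon leaves its count unable to check the genotypes. The Purkinje cell genes Car8 and Calb1 had 232481 and 149596 counts over the 9 libraries, whereas Ppp1r17 and Slc1a6, which also mark these cells, were listed at 0.

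The assignment of counts to gene names carries a limit that bears on all 3 genes. Of the 52029 identifiers found in GENCODE vM21, an annotation of GRCm38, only 35 had the same version number in the table, and 46163 had a version number that was exactly 1 higher. The submitters' notes name GRCm38, and the annotation behind the counts is not given in the sources used here. Some genes that neurons use broadly had no count or nearly none, among them Stmn1 and Tubb3 with 0 and Marcks with 3 over all libraries. These genes were chosen after their values were seen. Of the 21829 protein-coding genes listed, 7698 (35.3%) had a mean of at least 10 counts. Among the 10 protein-coding genes next in order on the chromosome, equally many on each side, this held for 9 around Basp1. It held for 9 around Tox and for 3 around Serpine2. Whether the counts of a row come from the gene of that name was not tested, and the values below belong to the rows as listed.

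In GRCm38 with the annotation of GENCODE vM21, Basp1 (ENSMUSG00000045763) lies on the minus strand at chr15:25363277-25413764, with a combined exonic length of 2009 bases. Tox (ENSMUSG00000041272) lies on the minus strand at chr4:6686353-6991557, a span of 305205 bases with 7609 exonic bases. Serpine2 (ENSMUSG00000026249) lies on the minus strand at chr1:79794197-79861180, with 8287 exonic bases. Tox had no entry among the promoter sequences used here. The promoters of Basp1 and Serpine2 are shown because both genes were chosen as lower in the same libraries, and because the stretch before the start of each is rich in G and C. They are RefSeq sequences of GRCm38.p6 read 5′ to 3′ on the minus strand, with each GC box, GGGCGG on either strand, in capitals. For Basp1 it is the 250 bases before the start, chr15:25413765-25414014. For Serpine2 it is 219 bases, chr1:79858697-79858915, which lie before the RefSeq start but inside the longer GENCODE gene, with 31 bases left out because they fall in a GENCODE exon.
Basp1: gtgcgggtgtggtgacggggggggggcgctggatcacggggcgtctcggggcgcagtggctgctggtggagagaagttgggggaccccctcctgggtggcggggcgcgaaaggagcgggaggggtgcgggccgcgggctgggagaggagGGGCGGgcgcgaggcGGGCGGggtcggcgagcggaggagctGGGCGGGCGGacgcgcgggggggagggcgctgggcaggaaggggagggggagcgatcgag
Serpine2: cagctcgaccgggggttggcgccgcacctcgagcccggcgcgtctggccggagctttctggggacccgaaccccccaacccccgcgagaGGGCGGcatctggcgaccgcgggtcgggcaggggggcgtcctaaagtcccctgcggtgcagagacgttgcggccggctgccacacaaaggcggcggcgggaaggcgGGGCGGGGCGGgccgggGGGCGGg
Both stretches held 4 matches to the GC box, of which some overlap, and this motif was present in 32.7% of 32851 promoters of 250 bases and in 28.3% of those of 219 bases. The GC content was 78.8% for Basp1 and 77.6% for Serpine2, against a median of 52.4% over all promoters of 250 bases. Neither stretch held TATAAA, which was found in 12.4% of promoters at 250 bases and 9.92% at 219 bases, nor CCAAT, found in 33.8% and 30.9%, on either strand. An E-box, CANNTG, which reads the same way on both strands in these letters, was found 1 time for Serpine2 and 0 times for Basp1, and in 62.0% and 66.2% of promoters of the same lengths. These matches describe the letters and do not show that a factor binds there.

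Basp1 was high in WT mice, low in KI/KI mice, and divided in KI/+ mice. The WT libraries had 658, 669 and 714 counts, or 246, 278 and 308 CPM. The KI/KI libraries had 342, 304 and 177 counts, or 87.7, 77.5 and 66.9 CPM. All KI/KI libraries were therefore below all WT libraries, and the KI/KI mean of 77.38 ± 10.4 (SD, n = 3) CPM was 27.9% of the WT mean of 277.6 ± 31.0 CPM. The KI/+ libraries had 821, 669 and 142 counts, or 283, 247 and 74.8 CPM. Replicates 1 and 2 of KI/+ thus lay among the WT libraries, while replicate 3 lay inside the range of the KI/KI libraries. The KI/+ mean of 201.9 ± 112 (SD, n = 3) CPM stands for none of the 3 libraries, and in the order of the genotypes KI/+ overlapped with both neighbours. The log2 fold change was -1.83 (standard error 0.276) in KI/KI against WT and -1.40 (0.279) in KI/KI against KI/+ mice.

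Tox, the least counted of the 3 genes with 295 counts in all, showed the same division among KI/+ libraries in fewer counts. WT libraries had 35, 42 and 41 counts, or 13.1, 17.5 and 17.7 CPM. KI/KI libraries had 20, 28 and 11 counts, or 5.13, 7.14 and 4.16 CPM, and all were below the WT libraries. The WT mean was 16.09 ± 2.59 (SD, n = 3) CPM and the KI/KI mean 5.476 ± 1.52 CPM, which is 34.0% of WT. The KI/+ libraries had 50, 54 and 14 counts, or 17.3, 20 and 7.37 CPM. Replicate 3 was again the low library, and it stood just above the highest KI/KI library, a gap that the 14 and 28 counts behind them cannot resolve. The KI/+ mean was 14.87 ± 6.63 (SD, n = 3) CPM. The log2 fold change was -1.51 (0.309) in KI/KI against WT and -1.45 (0.309) in KI/KI against KI/+ mice.

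Serpine2 changed less and varied less than the other two genes, and its KI/+ libraries stayed together. WT libraries had 793, 770 and 728 counts, or 297, 320 and 314 CPM. KI/+ libraries had 963, 764 and 561 counts, or 333, 282 and 295 CPM, and KI/KI libraries had 898, 814 and 548 counts, or 230, 208 and 207 CPM. Every KI/KI library was below every WT and every KI/+ library, and WT and KI/+ libraries overlapped. The means were 310.4 ± 12.1, 303.4 ± 26.0 and 215.0 ± 13.2 (SD, n = 3 each) CPM, so that KI/KI mice had 69.3% and KI/+ mice 97.7% of the WT level. KI/+ replicate 3, the low library for Basp1 and Tox, was the second highest of its genotype for Serpine2. The log2 fold change was -0.53 (0.077) in KI/KI against WT and -0.50 (0.077) in KI/KI against KI/+ mice.

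**Figure D1:**
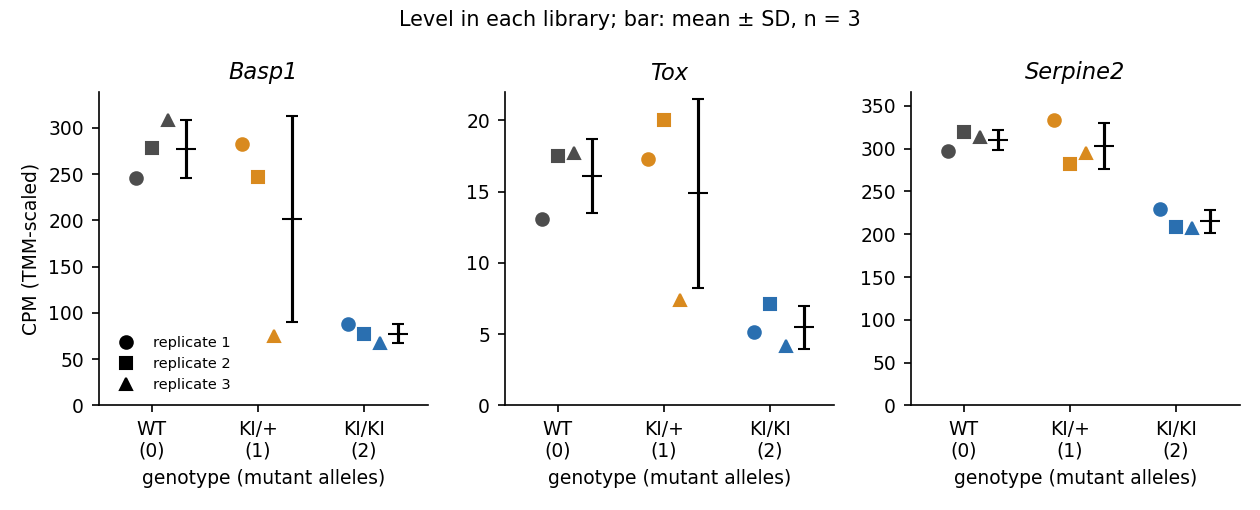
CPM (vertical axes from 0, different for each gene) of Basp1, Tox and Serpine2 in each library by genotype, with the number of mutant alleles in parentheses; symbols mark replicates and bars the mean ± SD, n = 3. KI/+ replicate 3 sits at 74.8 CPM for Basp1 and 7.37 CPM for Tox, beside the KI/KI libraries, and at 295 CPM for Serpine2, beside the WT libraries.

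In edgeR's quasi-likelihood fit, the limits for a call were 1.3 for the fold change and 0.2 for the FDR, adjusted over every gene tested. All 3 genes were among the 125 genes called lower in KI/KI mice relative to WT, 1.15% of those tested, and among the 33 called lower relative to KI/+ mice, 0.304% of those tested. Both counts follow from how the genes were chosen. They are no test of the genes, and they were not kept in every setting. Relative to WT, Basp1 was not among the genes called with edgeR's robust option, and Tox was not without WT replicate 2, WT replicate 3 or KI/KI replicate 3. Relative to KI/+ mice, Basp1 and Tox both dropped out when KI/+ replicate 2 or KI/KI replicate 3 was removed. Basp1 also dropped out with DESeq2, limma-voom or the robust option, and Tox when KI/+ replicate 1 or KI/KI replicate 1 was removed or when only these 6 libraries were fitted. No KI/KI library reached the lowest WT library for 8.09% of all genes tested, and this held for 3 of these 3. The KI/KI libraries were all below the KI/+ libraries for 7.28% of all genes, and for Tox and Serpine2 but not for Basp1.

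Whether 1 mutant allele alone goes with a lower level was asked by comparing KI/+ with WT mice. None of the 3 genes was called, and of all genes tested 0 (0%) were called lower and 0 higher, although 459 had an unadjusted p under 0.05. DESeq2 and limma-voom also called 0 genes here. The value of Basp1 on the log2 scale was -0.43 (standard error 0.260), with an FDR of 0.998 by edgeR. Tox had one of -0.05 (0.277, FDR 0.998 by edgeR), and Serpine2 one of -0.03 (0.077, FDR 0.998 by edgeR). For none of the 3 genes were all KI/+ libraries below all WT libraries, which was the case for 4.65% of all genes. Without KI/+ replicate 3 the log2 fold change was -0.06 for Basp1 and 0.22 for Tox, so the lower mean of Basp1 in KI/+ mice rests on that library.

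A second question was whether the level in KI/+ mice lies at the midpoint of WT and KI/KI mice on the log2 scale. It would lie there if each mutant allele changed the level by the same factor. Were each allele to lower the CPM by the same amount, KI/+ mice would lie above this midpoint. KI/+ mice lay above the midpoint by 0.49 (standard error 0.229, FDR 0.881 by edgeR) for Basp1. The value was 0.70 (0.252, FDR 0.881 by edgeR) for Tox and 0.23 (0.067, FDR 0.881 by edgeR) for Serpine2. None of the 3 passed the threshold over all genes, where 0.0184% were called above the midpoint (2 of 10842, smallest FDR 0.119). This comparison is not wholly free of the choice of the genes, because their difference between KI/KI and KI/+ mice was also known. Without KI/+ replicate 3, Basp1 lay above the midpoint by 0.86 with an FDR of 0.000837 by edgeR, the one call on these 3 genes in KI/+ mice that the removal of a library changed. The low Basp1 level of KI/+ replicate 3 was known, so this FDR is a description and no test.

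Each KI/+ library was also placed on a scale from the WT mean (0%) to the KI/KI mean (100%) of log2 CPM. For Basp1, replicates 1 and 2 lay at -1.97% and 8.72% and replicate 3 at 102%. For Tox they lay at -7.53%, -21.4% and 71.6%, and for Serpine2 at -18.8%, 25.6% and 13.4%. Replicates 1 and 2 were thus nearer to WT for all 3 genes, and replicate 3 was nearer to KI/KI for Basp1 and Tox only. Over the 125 genes called lower in KI/KI mice relative to WT, replicate 3 was nearer to the KI/KI mean for 69 (55.2%), against 38 (30.4%) in replicate 1 and 36 (28.8%) in replicate 2.

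**Figure D2:**
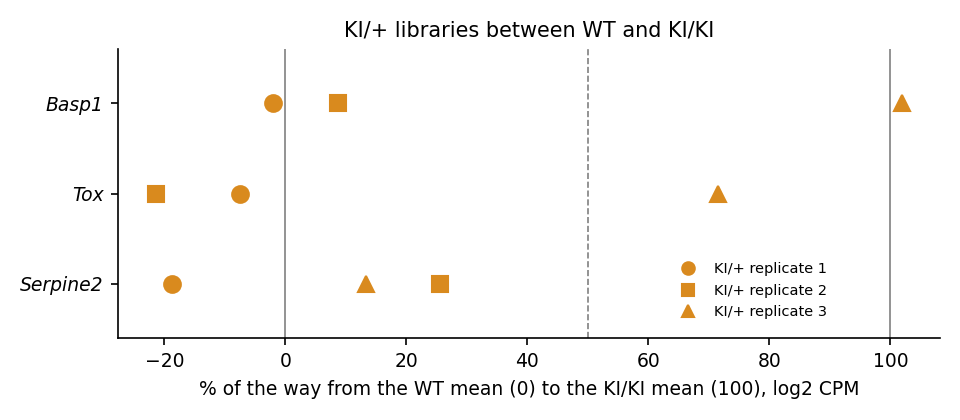
Position of the 3 KI/+ libraries (symbols) for each gene on a log2 CPM scale from the WT mean at 0% to the KI/KI mean at 100%, with the midpoint dashed. Replicate 3 lies at 102% for Basp1, 71.6% for Tox and 13.4% for Serpine2, and every other library lies below 50%.

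The spread among KI/+ libraries set Basp1 and Tox apart from Serpine2. The range of log2 CPM among KI/+ libraries was 1.91 for Basp1, against 0.32 in WT and 0.39 in KI/KI libraries, and 0.756% of all genes tested had a range at least as large among KI/+ libraries. For Tox it was 1.36, against 0.42 in WT and 0.69 in KI/KI libraries, and 3.47% of all genes reached it. For Serpine2 it was 0.23, below the median of 0.36 over all genes, with 69% of genes at or above it. On the scale of CPM, the SD was 55.3% of the mean for Basp1 in KI/+ mice, 44.6% for Tox and 8.56% for Serpine2.

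KI/+ replicate 3 also differed from the other KI/+ libraries in depth and in the genes of other cells. It had the smallest total of all libraries and carries the label prefix L3, while replicates 1 and 2 of every genotype carry L1. Replicate 3 of WT and of KI/KI mice does not carry L1 either. The summed CPM of KI/+ replicate 3 was 20100 for the 12 Purkinje cell markers, the highest of the 9 libraries. This library had the lowest sums for the 10 granule cell markers (605), the 10 interneuron markers (196) and the 10 oligodendrocyte markers (1800), and the highest for the 10 markers of deep nuclei and brainstem neurons (340). The granule cell and oligodendrocyte sums consist mostly of 1 gene each, Etv1 with a KI/+ mean of 652 CPM and Mbp with one of 2080 CPM. In KI/+ means the same held for Bergmann glia and astrocytes (Gfap, 810 of 934.5 CPM). It also held for deep nuclei and brainstem neurons (Chat, 230 of 325.5), vessels (Flt1, 97.2 of 113.4) and microglia (Tmem119, 13.5 of 15.53). The Purkinje cell sum consists almost wholly of Car8, Calb1 and Itpr1, with KI/+ means of 9420, 6170 and 2890 of 18620 CPM. The next most counted Purkinje cell marker, Aldoc, had a KI/+ mean of 71.7 CPM, and Ppp1r17 and Slc1a6 were listed at 0. The sum for the 10 markers of Bergmann glia and astrocytes, 874, was the lowest of its genotype. The part of depth, label or cell content in the levels of Basp1 and Tox in this library was not tested.

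Between genotypes no tested marker gene of any cell type was called in any of the 3 comparisons. Tested were 7 of 12 Purkinje cell markers and 4 of 10 each for granule cells, interneurons and oligodendrocytes. It was 3 of 10 each for Bergmann glia and astrocytes and for deep nuclei and brainstem neurons. For vessels it was 4 of 6 and for microglia 1 of 10. Over all genes, 1.15% were called lower in KI/KI mice relative to WT. There Car8, Calb1 and Nxph1 had FDRs of 0.174, 0.197 and 0.161 by edgeR but fell short of the fold-change limit. The summed Purkinje markers ranged from 15300 to 17800 CPM in WT, from 17700 to 20100 in KI/+ and from 17400 to 19700 in KI/KI libraries. For Bergmann glia and astrocytes, cells known to make Serpine2, the ranges were 844 to 1020, 874 to 982 and 993 to 1080 CPM, with Gdf10, Hopx and S100b listed at 0. For granule cells, with Cbln3 at 0, the ranges were 661 to 785, 605 to 799 and 732 to 863 CPM, and for interneurons, with Kit and Lgi2 at 0, they were 209 to 254, 196 to 231 and 216 to 242 CPM. Oligodendrocyte markers, with Ermn at 0, ranged from 2320 to 2750, from 1800 to 2750 and from 1900 to 2550 CPM. Markers of deep nuclei and brainstem neurons lay between 292 and 340 CPM in all libraries with Pou4f1 at 0, those of vessels between 95.9 and 117 with Cldn5 at 0, and those of microglia between 9.45 and 18.6 with C1qa, C1qb, C1qc and Trem2 at 0. The part of cell content in the levels of the 3 genes was not tested.

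The 3 genes followed each other across libraries to different degrees. Over the 9 libraries, which share the genotype difference by which the genes were chosen, Pearson's r of log2 CPM was 0.948 between Basp1 and Tox, 0.833 between Tox and Serpine2 and 0.818 between Basp1 and Serpine2. Among 10841 other genes, Tox ranked 6 in likeness to Basp1 and Serpine2 ranked 144. Without KI/+ replicate 3 the values were 0.960, 0.906 and 0.979, so the value between Basp1 and Serpine2 was the one that moved most with this library.

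**Figure D3:**
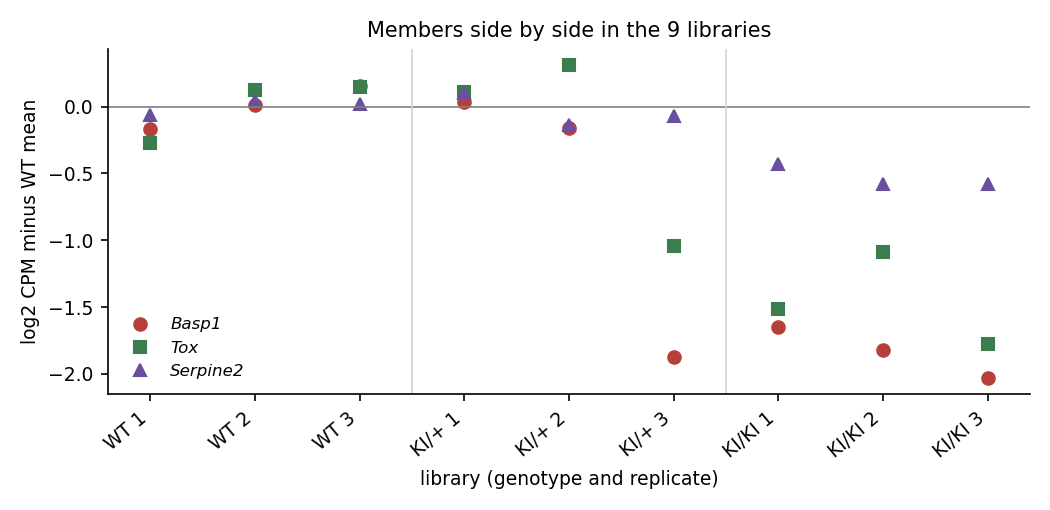
log2 CPM minus the WT mean for Basp1, Tox and Serpine2 in each of the 9 libraries, with vertical lines between genotypes. The 3 genes lie together near 0 in the WT libraries and in KI/+ replicates 1 and 2, all are lower in KI/KI libraries, and in KI/+ replicate 3 Basp1 and Tox are low while Serpine2 is near 0.

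The 5 genes most like each of the 3 over the 9 libraries were found by Pearson's r of log2 CPM. For Basp1 they were 1700015G11Rik (0.982), Sept6 (0.979), Tac1 (0.968), Rnf123 (0.964) and Ogfod1 (0.951). Tac1 codes for the precursor of substance P, Sept6 for a septin of the cytoskeleton and Rnf123 for a ubiquitin ligase. Because likeness was measured over all 9 libraries, a low value in KI/+ replicate 3 was part of what chose these genes, and their values are given as a description. KI/+ replicate 3 had 4.74 CPM for Tac1 against 31.4 and 17.0 in KI/+ replicates 1 and 2, a WT mean of 23.0 and a KI/KI mean of 3.45. For Rnf123 it had 17.9 CPM against 71.5 and 80.2, with a WT mean of 71.9 and a KI/KI mean of 14.5. For Tox the genes were Nlrp1a (0.966), Mb (0.963), Klhl11 (0.961), Nyap1 (0.958) and 1700015G11Rik (0.956). Nlrp1a had 92.7 CPM in KI/+ replicate 3, against 132 and 135 in the other KI/+ libraries and means of 122 in WT and 70.2 in KI/KI mice. For Serpine2 they were Rnf14 (0.980), Slc6a11 (0.961), 5830462O15Rik (0.955), Gm12498 (0.953) and R3hdm2 (0.949). Slc6a11, a GABA transporter of astrocytes, had 44.2, 41.4 and 31.1 CPM in KI/+ libraries, with means of 46.3 in WT and 15.8 in KI/KI mice. Only 1700015G11Rik stood in more than 1 of the 3 groups. Without KI/+ replicate 3, the 5 most like genes shared 2 with these for Basp1, 1 for Tox and 3 for Serpine2, so the choice of names depends on that library.

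None of the 27 tested genes of related function passed the limits in edgeR's test, and an unadjusted p under 0.05 was found for 3 of them in KI/KI mice relative to WT, for 2 relative to KI/+ mice and for 0 in KI/+ mice relative to WT. Over all 10842 genes tested, 1085, 1002 and 459 had such a p in these comparisons, so the share among the related genes was near or below that of all genes. Of 30 other genes of growth cones, including GAP43 and the MARCKS proteins, 13 were tested and 4 had no count, and 0 of the 13 were called in any of the 3 comparisons between genotypes. Relative to WT, the median of their log2 fold changes in KI/KI mice was 0.02, within a range from -0.78 to 0.29 and beside a median of 0.01 over all genes tested. Dpysl5, a collapsin response mediator, had a WT mean of 264 ± 13.5 CPM and a KI/KI mean of 267 ± 13.4 CPM (SD, n = 3 each), and the adhesion molecule Chl1 had 181 ± 15.5 and 199 ± 27.4. The semaphorin receptor Plxna1 had 112 ± 15.5 and 107 ± 8.66 CPM, and the axonal adhesion molecule Cntn2 had 105 ± 3.17 and 112 ± 6.26. Gap43, which acts on actin as Basp1 does, was not tested because it had only 62 counts in all. It was chosen after its values were seen.

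Of 8 relatives of Tox among TOX and HMG box genes, 5 were tested and 0 called in any of the 3 comparisons, and the median of their log2 fold changes in KI/KI mice relative to WT was -0.12. Hmg20b, a chromatin protein, averaged 1180 ± 29.6 CPM in WT libraries and 1070 ± 31.8 CPM in KI/KI libraries (log2 fold change -0.15, FDR 0.379 by edgeR). Tox3, a paralog of Tox, averaged 12.8 ± 1.0 CPM in WT libraries, 14.0 ± 1.33 in those of KI/+ and 15.7 ± 1.3 in those of KI/KI mice (log2 fold change 0.29, FDR 0.652 by edgeR). Hmgb1 averaged 14.8 ± 3.73 CPM in WT libraries and 13.4 ± 3.0 CPM in KI/KI libraries, and Tox2 had 4.85 ± 2.38 and 5.26 ± 1.71 (SD, n = 3 each).

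Of 24 genes around Serpine2, which are other serpins, target proteases and receptors, 9 were tested and 0 called in any of the 3 comparisons, with a median log2 fold change of -0.02 and a range from -0.70 to 0.63 in KI/KI relative to WT. The secreted serpins Serpinf1 and Serpini1 had 194 ± 6.97 and 89.3 ± 6.18 CPM in WT libraries, and 190 ± 9.12 and 88.2 ± 5.63 CPM in KI/KI libraries (SD, n = 3 each). The secreted protease Htra1 had 40.6 ± 2.53 and 40.5 ± 4.21 CPM. Each of these 3 means differed between the genotypes by less than its SD.

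**Figure D4:**
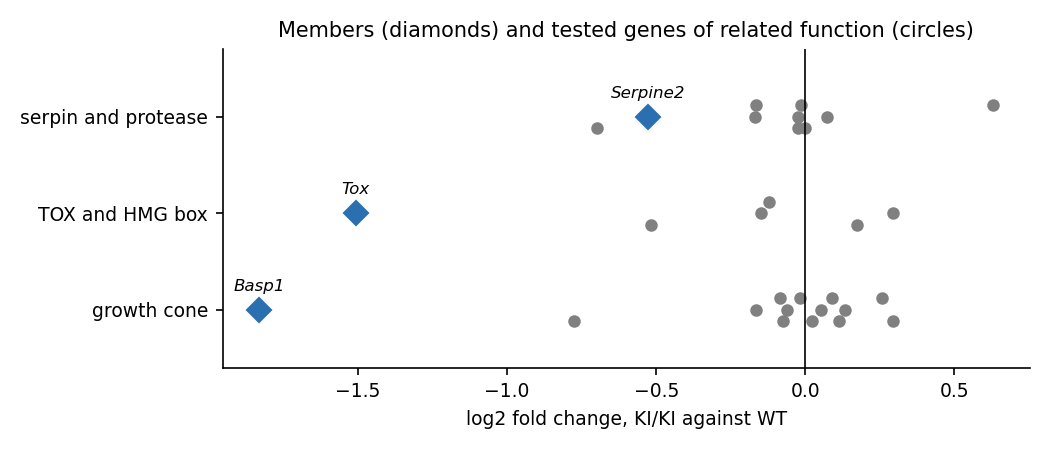
log2 fold change in KI/KI against WT mice of Basp1, Tox and Serpine2 (diamonds) and of the tested genes of related function (circles; 13 growth cone genes, 5 TOX and HMG box genes, 9 serpin and protease genes). Basp1 and Tox lie at -1.83 and -1.51, below every gene of their lists, while 1 gene of the serpin and protease list lies below Serpine2 at -0.53 and did not pass the test.

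The neighbours of Basp1 and Tox on the chromosome were not called. Cdh18 and Myo10, the nearest protein-coding genes on either side of Basp1, had log2 fold changes of 0.05 and 0.01 in KI/KI relative to WT (FDR 0.929 and 0.978 by edgeR). Nsmaf and Car8, on either side of Tox, had 0.09 and 0.25 (FDR 0.699 and 0.174 by edgeR), where Car8 fell short of the fold-change limit. Mrpl44 and Fam124b, on either side of Serpine2, had 1 count each over all libraries and give no comparison.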

How the data were processed

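RNA-sequencing of laser-microdissected cerebellar tissue gave 9 libraries, 3 per genotype. The libraries were made with a stranded mRNA kit, per the labels, and the authors aligned and counted reads per gene with Rsubread. They deposited raw counts without normalization, and the submitters' processing notes name the builds GRCm38 and mm10. The strand setting and the gene annotation are not given in the sources used here. Symbols and positions were taken by identifier from GENCODE vM21. All 9 count columns were used. Counts of each 2 libraries of a genotype were compared by chi-square per degree of freedom. It was lowest for WT replicates 2 and 3, at 1.286, little above sampling noise, and from 3.048 to 11.539 for the other pairs. What the likeness of these 2 WT libraries means for the spread among WT libraries was not tested.

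Genes were kept by edgeR's expression filter (minimum count 10), normalized by TMM and tested in R 4.3.3 with edgeR 4.0.16 by the quasi-likelihood method. The 9 libraries entered 1 fit without covariates, with Benjamini-Hochberg adjustment. The limits of 1.3 for the fold-change and 0.2 for the FDR are those of the study. Standard errors were derived from the F statistic. log2 CPM used a prior count of 2. The smallest p that an exact permutation of 3 libraries against 3 allows is 0.1.

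The members, gene lists and alternatives were chosen with earlier results of these data known. The genes named were the 3 members, Kcnd3, the nearest protein-coding gene on each side, the 5 genes most like each member, and the 4 most counted genes of each list, of which some are not reported here. Genes named outside this rule are marker genes at 0, and genes said to be chosen after their values were seen. Alternatives were RLE, no TMM, DESeq2 1.42.0, limma-voom (limma 3.58.1), the robust option, other filters, fits of 6 libraries, a replicate block, the L1 libraries alone, another prior count and each library left out. The tests were tried on simulated counts.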

Additional observations from a re-analysis of the deposited data

How the results depend on the processing

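The lower levels of Basp1, Tox and Serpine2 in KI/KI mice kept their direction under all alternatives run, with log2 fold changes against WT mice from -1.93 to -1.66, from -1.75 to -1.30 and from -0.58 to -0.49. The comparison of KI/+ with WT mice was less stable. With the 6 L1 libraries alone, Basp1 had a log2 fold change of 0.02 and Tox one of 0.29. With each library left out in turn, values ranged from -0.74 to -0.06 for Basp1, from -0.30 to 0.22 for Tox and from -0.10 to 0.02 for Serpine2. Tox was at 0.01 without WT replicate 2, 0.02 without WT replicate 3 and 0.22 without KI/+ replicate 3, and Serpine2 at 0.02 without KI/+ replicate 2. Without a count filter, Basp1 was called in KI/+ against WT mice (-0.44, FDR 0.00106 by edgeR) and above the midpoint (0.47, FDR 1.85e-06 by edgeR), the latter also with the L1 libraries alone (0.85, FDR 0.000672 by edgeR). The L1 libraries leave out KI/+ replicate 3, whose low Basp1 level was known, so their FDR is no test. With a library left out, the value of Basp1 above the midpoint ranged from 0.18 to 0.86. The cause was not tested.

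The number of genes called lower in KI/KI mice relative to WT, 125, was 79 with DESeq2, 27 with the L1 libraries alone, 219 without a filter, and with a library left out from 21 (WT replicate 2) to 239 (WT replicate 1), with 26 without WT replicate 3, 24 without KI/KI replicate 3 and 189 without KI/+ replicate 3. The 33 called lower in KI/KI than in KI/+ mice became 21 without TMM, 17 with the 6 libraries compared and 93 without a filter, and with a library left out from 9 (KI/+ replicate 2) to 57 (KI/KI replicate 2), with 10 without KI/KI replicate 3, 55 without WT replicate 1 and 52 without KI/+ replicate 3. The 0 called lower in KI/+ than in WT mice became 32 without a filter and 27 without WT replicate 1.

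The labels tie the replicate numbers to no shared litter, batch or day, and the numbers were not taken as pairs because not every pair correlated over 0.1. Deviations of same-numbered libraries correlated between -0.018 and 0.240, over 0.1 in 5 of 9 pairs including all 3 of replicate 1 (0.2 to 0.240), and 3 of 9 libraries correlated best with their own number in both other genotypes. With the replicate number as a block, 219 genes were called lower and 66 higher in KI/KI mice relative to WT, against 125 and 19 without it, 96 lower and 68 higher relative to KI/+ mice, against 33 and 9, and 0 in KI/+ against WT mice, and Basp1 had a log2 fold change of -0.51 in KI/+ against WT mice (FDR 0.892 by edgeR). Depth limits Tox most, with 11 to 54 counts per library.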
